A study of Homo sapiens with 12 samples.

Results

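Described here are 10 genes of the differentiated gut epithelium in HCT116, a human colorectal carcinoma cell line: MUC13, MUC1, CEACAM1, CEACAM5, CEACAM6, CA2, SLC26A3, VIL1, CDH17 and FABP1. They were found by gene symbol in both deposited count tables, which each hold 56104 gene IDs, and all 10 have 1 row in each. Control cells (Ctrl, named Ctrl_KO in the sample titles) were compared with cells carrying a knockout of PPM1G (KO), a gene that encodes a nuclear serine/threonine phosphatase. The first assay, 4sU-seq, reads newly made RNA: cells were given 500 µM 4-thiouridine for 10 min, and labelled molecules were captured on streptavidin beads after biotinylation of 300 µg of RNA. The second assay, RNA-seq, reads RNA at steady state. The 4 groups held 3 libraries each, 12 in all. All cells were HCT116 under 15 passages and every library carried ERCC spike-in RNA. The sources used here do not give what the Ctrl cells carry, which site of PPM1G was edited, or whether the KO cells are 1 clone. The 4sU-seq cultures are called biological replicates in the labels. For RNA-seq nothing used here says that the libraries came from separate cultures, so p-values there measure the spread between these libraries.

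Transmembrane mucins such as MUC13 and MUC1 carry heavily glycosylated extracellular domains and form the glycocalyx on the apical face of epithelial cells. The CEACAM proteins are cell adhesion molecules of the immunoglobulin superfamily on the same surface, and CEACAM5 is the carcinoembryonic antigen measured in serum in colorectal cancer. In the colon, CA2 (cytosolic carbonic anhydrase) supplies bicarbonate that SLC26A3 exchanges for luminal chloride at the apical membrane. VIL1 (villin) bundles the actin of microvilli, CDH17 (LI-cadherin) joins intestinal epithelial cells, and FABP1 binds fatty acids in the cytosol of absorptive cells.

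Among these genes, MUC13 and CDH17 were higher in KO in newly made RNA, and CEACAM1, CA2 and SLC26A3 were higher in KO in steady-state RNA. A gene is called here when its adjusted p in the quasi-likelihood test of edgeR is below 0.05 over all genes tested. No gene of the 10 was called lower in either assay by edgeR, and DESeq2 called none lower either. At an unadjusted p below 0.05 there was 1 lower, MUC13 in RNA-seq. None was called in both assays. Levels are given as CPM, the count scaled to library size with TMM factors, and CA2 was the only one of the 10 above 5 CPM in any library. FABP1 had no count in any of the 12 libraries, and CEACAM5 and CEACAM6 had 1 count each, both in RNA-seq Ctrl 3.

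Promoter sequences are shown for MUC13, CEACAM1 and SLC26A3, which were called in one of the assays, so that the sequence before each start site can be read beside its values. Each is the 250 bases before the RefSeq start site on GRCh38.p14, given 5′ to 3′ on the minus strand, on which all 3 genes lie. Capitals mark matches to the motifs searched, on both strands, among them AGGAAG (the core of ETS factor sites), GTTAAT (part of the site of HNF1 factors) and CAAAGTCCA (a site of HNF4 factors).
MUC13, chr3:124934752-124935001: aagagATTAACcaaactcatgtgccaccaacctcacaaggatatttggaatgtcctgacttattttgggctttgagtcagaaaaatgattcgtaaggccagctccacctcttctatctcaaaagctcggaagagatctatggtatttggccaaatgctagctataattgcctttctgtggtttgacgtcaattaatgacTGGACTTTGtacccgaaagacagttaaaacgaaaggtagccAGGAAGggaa
CEACAM1, chr19:42528482-42528731: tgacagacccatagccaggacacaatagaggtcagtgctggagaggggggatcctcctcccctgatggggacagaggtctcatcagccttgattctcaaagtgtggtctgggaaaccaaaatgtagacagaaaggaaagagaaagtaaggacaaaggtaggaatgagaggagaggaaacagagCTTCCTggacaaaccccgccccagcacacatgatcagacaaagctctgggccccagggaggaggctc
SLC26A3, chr7:107803224-107803473: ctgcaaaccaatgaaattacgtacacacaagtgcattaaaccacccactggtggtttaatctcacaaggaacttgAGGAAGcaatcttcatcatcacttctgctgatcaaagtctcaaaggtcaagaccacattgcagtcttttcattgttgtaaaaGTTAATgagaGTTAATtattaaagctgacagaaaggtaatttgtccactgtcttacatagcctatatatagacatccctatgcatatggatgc

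The MUC13 window holds ATTAAC at -245, TGGACTTTG at -51 and AGGAAG at -10, each position being that of the first base counted back from the start site. The SLC26A3 window holds AGGAAG at -175 and GTTAAT at -93 and at -83, and the CEACAM1 window holds CTTCCT at -67. Of 35116 RefSeq promoter windows of the same length, 0.325% hold the HNF4 site, 6.23% the HNF1 motif and 28.7% the ETS core. These 3 windows do not hold the TATA box TATAAA, which 10.7% of all windows hold. They do not hold the CDX core CATAAA (9.64% of all windows) or the E-box CACGTG (6.34%) either. No motif match overlaps another. Of the genes not called here, FABP1 holds the HNF1 motif, the ETS core, the TATA box and the CDX core. MUC1 and CEACAM5 hold the ETS core, MUC1 and CEACAM6 the TATA box, and CEACAM5 and CEACAM6 the E-box. In GENCODE 29 the MUC13 and CEACAM1 windows lie inside the spans of these genes, which run from longer transcripts (chr3:124905442-124953819 and chr19:42507304-42561234). GC content is 41.6% in the MUC13 window, 53.2% in that of CEACAM1 and 37.6% in that of SLC26A3, where the median of all windows is 58.0%.

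The 4sU-seq libraries held 79403238 to 101884166 gene counts and the RNA-seq libraries 30962756 to 42479828, so that 3 counts, taken as the floor of detection in a library, were worth 0.0302 to 0.0365 CPM and 0.0739 to 0.0972 CPM. PPM1G itself measured 242, 271 and 235 CPM in the 4sU-seq Ctrl libraries and 98.9, 144 and 104 CPM in the KO libraries, and 326, 293 and 331 CPM against 97.8, 94.9 and 97.9 CPM in RNA-seq. It was lower in KO in both (log2 change -1.11 ± 0.17 (SE), adjusted p = 0.00717, and -1.71 ± 0.06, adjusted p = 1.77e-10). The 4sU-seq call of PPM1G was lost under ERCC scaling (adjusted p = 0.196). Among the KO libraries of 4sU-seq, replicate 2 stood apart. A chi-square per degree of freedom over genes was 344 and 454 between it and replicates 1 and 3, and 35.5 between those. Over genes, deviations of KO replicate 2 from its group mean correlated at 0.88 with those of Ctrl replicate 2. RNA-seq KO replicates 1 and 2 differed by 1.88 per degree of freedom where other pairs of one group gave 12.7 to 22.9, more than sampling noise, and were kept as separate libraries. All 7 epithelial identity markers, among them EPCAM and KRT8, were expressed above the filter in both assays. In 4sU-seq, where 19.6% of all genes tested were called, 1 of the 7 was called, CDH1, which was higher in KO. In RNA-seq, where 48.4% of all genes tested were called, CDH1 and CLDN7 (0.39 ± 0.05) were higher. ELF3 (-0.23 ± 0.06), KRT18 (-0.33 ± 0.09) and KRT19 (-0.19 ± 0.06) were lower there. The calls of these 3 lower genes were lost in 3, 3 and 7 of 15 alternatives. Of 12 markers of blood, endothelium, connective tissue, muscle and liver, 7 passed the filter in 4sU-seq and 6 of those were higher in KO. PECAM1, COL1A1, CDH5 and PDGFRB had the smallest p. In RNA-seq 2 passed and were higher (COL1A1 and DES). Of all genes tested, 12.6% were called higher in 4sU-seq and 21.5% in RNA-seq. The summed level of the 12 markers was 11.6 to 13.3 CPM in Ctrl and 23.6 to 28.9 CPM in KO in 4sU-seq. In RNA-seq it was 5.83 to 7.76 CPM in Ctrl and 12.4 to 14.1 CPM in KO. PTPRC, a marker of white blood cells, had at most 13 counts in any library, and CD3E had no RNA-seq count. The part of these markers in the results below was not tested. The libraries are from bulk cultures, in which more cells of a kind and more RNA per cell cannot be told apart.

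Zeros in the 4sU-seq table followed the overlap of annotated genes. Of 924 protein-coding genes with at least 50 RNA-seq counts and a span fully covered by the spans of other genes in GENCODE 29, 799 (86.5%) had no count in any of the 6 4sU-seq libraries. Where over 50% of the span was free, 6 of 11041 such genes (0.0543%) had none. CEACAM1 (chr19:42507304-42561234, minus strand) is covered over 100% of its span by the antisense gene LIPE-AS1, and CEACAM6 (chr19:41750977-41772208, plus strand) is fully covered by AC243967.1 and AC243967.2 together. In CEACAM5 (chr19:41708585-41729798, plus strand) 0.127% of the span is free, the rest being covered by AC243967.1. All 3 CEACAM genes had no 4sU-seq count, and these zeros are not taken as a measure of new RNA. In the bin that holds CEACAM5, over 0% to 1% free, 42 of 228 protein-coding genes with at least 50 RNA-seq counts (18.4%) had none. CEACAM5 and CEACAM6 had 1 RNA-seq count each. For these 2 genes, overlap and a lack of RNA cannot be told apart. FABP1 (chr2:88122982-88128116) has 100% of its span free and no count either. For the other 6 genes 79.6% to 100% of the span is free. In the RNA-seq table zeros followed the overlap of exons. Of 152 protein-coding genes with at least 50 4sU-seq counts and all exon bases covered by other genes' exons, 91 (59.9%) had no RNA-seq count. Where over 50% of the exon bases were free, 1.80% had none. Of 125 genes with that many 4sU-seq counts and a fully covered span, 6 (4.8%) had none. The sources used here do not give the counting feature or strand setting of either table, so reads of overlapping genes on opposite strands cannot be told apart.

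**Figure D1:**
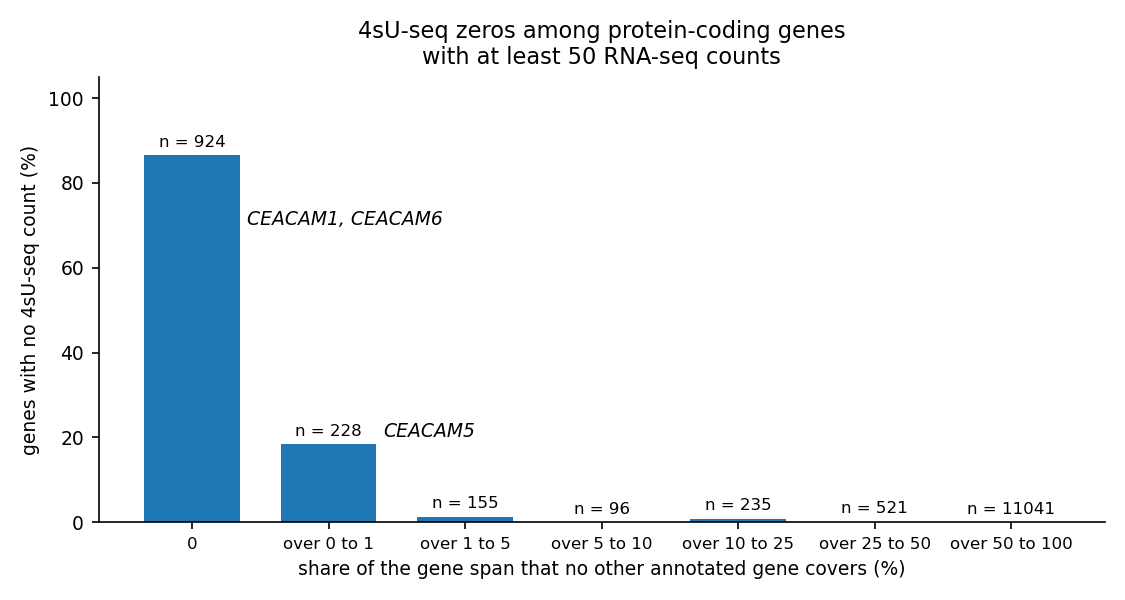
Percent of protein-coding genes with at least 50 RNA-seq counts that have no count in any 4sU-seq library, by the share of the gene span that no other GENCODE 29 gene covers; n is the number of genes in each bar. The bar for fully covered spans, which holds genes placed like CEACAM1 and CEACAM6, stands at 86.5%, the bar that holds CEACAM5's share at 18.4%, and the bar for over 50% at 0.0543%.

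Of the 10 genes, 6 passed the filter on low counts in 4sU-seq and 5 in RNA-seq. In 4sU-seq 2 of the 6 were called, both higher, beside 19.6% of all 21236 genes tested that were called and 12.6% that were called higher. In RNA-seq 3 of the 5 were called, all higher, beside 48.4% of 20415 genes that were called and 21.5% that were called higher. The 4 genes that did not pass in 4sU-seq were CEACAM1, CEACAM5, CEACAM6 and FABP1, and the 5 in RNA-seq were VIL1, CDH17, CEACAM5, CEACAM6 and FABP1. A gene can pass that filter through the group in which it is high, as SLC26A3 did in RNA-seq. These counts therefore describe the genes that passed and not all 10.

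**Figure D2:**
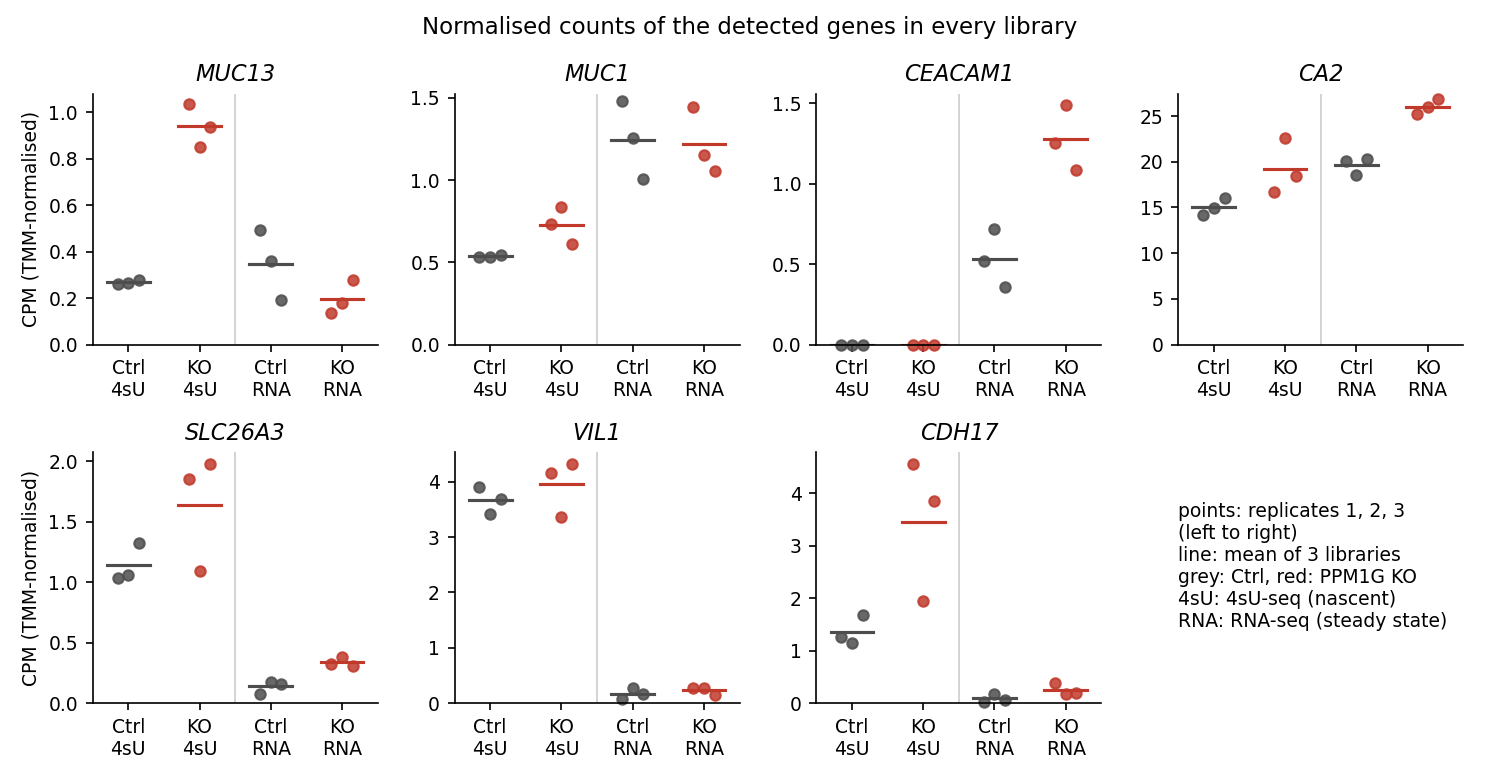
CPM (TMM-normalised, linear axes from 0) of the 7 genes with more than 1 count in a group, 1 point per library in replicate order and a line at the mean of 3, grey for Ctrl and red for KO, with 4sU-seq left and RNA-seq right in each panel. MUC13 separates by genotype in 4sU-seq and overlaps in RNA-seq, CEACAM1 is at 0 in 4sU-seq and separates in RNA-seq, and KO replicate 2 is the lowest KO point for CDH17 and SLC26A3 in 4sU-seq.

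MUC13, a transmembrane mucin abundant on the colonic surface, was the gene with the largest rise in newly made RNA among the 6 tested. Its level was 0.262, 0.266 and 0.280 CPM in Ctrl replicates 1, 2 and 3 and 1.04, 0.850 and 0.939 CPM in KO, from 22 to 26 and 71 to 103 counts. All KO libraries lay above all Ctrl libraries, as for 20.6% of the genes tested. The log2 change was 1.81 ± 0.16, a fold of 3.5 (adjusted p = 0.00132). Counting error alone gives a standard error of 0.19 for this gene, so the fitted one is the smaller of the pair.

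In steady-state RNA the same gene had 20, 12 and 6 counts in Ctrl and 5, 7 and 9 counts in KO, or 0.493, 0.358 and 0.194 CPM against 0.136, 0.180 and 0.280 CPM. The groups overlap, since KO replicate 3 lies above Ctrl replicate 3. The log2 change was -0.88 ± 0.40 with adjusted p = 0.0895, and without Ctrl replicate 3 it was -1.11 with adjusted p = 0.0341. That was the 1 alternative of 12 in which it was called. Over the 12 the log2 change ran from -1.18 to -0.67 and the adjusted p reached 0.283. Without Ctrl replicate 1, or without Ctrl replicate 2, the gene did not pass the filter. The direction of the point estimate in RNA-seq was thus opposite to that in 4sU-seq.

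MUC1, a transmembrane mucin of many glandular epithelia, showed no called change. In 4sU-seq its Ctrl libraries gave 0.533, 0.531 and 0.547 CPM and its KO libraries 0.735, 0.838 and 0.614 CPM. These groups did not overlap, as for 38.4% of all genes tested, and the log2 change was 0.44 ± 0.17 with adjusted p = 0.117. In RNA-seq it measured 1.48, 1.25 and 1.00 CPM against 1.45, 1.15 and 1.06 CPM. Those values overlap throughout, and the log2 change of -0.04 ± 0.20 (adjusted p = 0.878) changed sign with scaling by library size alone (0.14) and by ERCC counts (0.03). The gene AL713999.1 covers 20.4% of the MUC1 span on the same strand.

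CEACAM1, an adhesion receptor of epithelial and immune cells, was measured in RNA-seq only. Its counts were 21, 24 and 11 in Ctrl and 46, 58 and 35 in KO, which are 0.517, 0.716 and 0.356 CPM and 1.25, 1.49 and 1.09 CPM. Every KO library was higher than every Ctrl library, as for 26.1% of the genes tested in RNA-seq. The log2 change was 1.26 ± 0.25 (adjusted p = 0.000794), a fold of 2.40. LIPE-AS1, which runs across the whole of CEACAM1 on the other strand, was also higher in KO, at 0.72 ± 0.20 in RNA-seq (adjusted p = 0.00799) and 0.79 ± 0.14 in 4sU-seq (adjusted p = 0.0119). In GENCODE 29, 96.7% of the CEACAM1 exon bases lie in no other gene's exon.

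CEACAM5 and CEACAM6, the glycosylphosphatidylinositol-anchored members often used as colorectal tumour antigens, were below the floor in all RNA-seq libraries. With 1 count in Ctrl and none in KO for each, no change is given. CEACAM family genes are near-identical over stretches of their sequence, so reads can be split between them and counts of single members are uncertain.

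CA2 was the most abundant of the 10 genes in both assays. Its RNA-seq level was 20.0, 18.6 and 20.3 CPM in Ctrl and 25.2, 26.0 and 26.8 CPM in KO, with no overlap between groups, as for 56.1% of the genes tested in RNA-seq. The log2 change was 0.41 ± 0.06, a fold of 1.32 (adjusted p = 8.08e-05), the smallest change among the called genes and the one with the most counts (622 to 1014 per library). In 4sU-seq the level was 14.2, 14.9 and 16.1 CPM in Ctrl and 16.7, 22.6 and 18.4 CPM in KO. There too the KO libraries lay above the Ctrl libraries, as for 20.6% of the genes tested in 4sU-seq. The log2 change was 0.35 ± 0.15 with adjusted p = 0.155. With all 12 libraries in 1 fit, which shares the spread between assays, that p was 0.0373, the 1 call among 15 alternatives. KO replicate 2 was its highest 4sU-seq library. Without that library the log2 change was 0.15 with adjusted p = 0.255.

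SLC26A3, the chloride and bicarbonate exchanger mutated in congenital chloride diarrhoea, was called in RNA-seq from few counts. Ctrl libraries held 3, 6 and 5 counts and KO libraries 12, 15 and 10, or 0.0739, 0.179 and 0.162 CPM against 0.327, 0.385 and 0.311 CPM. All Ctrl counts were below the filter's minimum count of 10 and no KO count was. The gene thus passed the filter through KO, where it is high. All KO libraries lay above all Ctrl libraries, as for 26.1% of the genes tested in RNA-seq. The log2 change was 1.34 ± 0.38 (adjusted p = 0.00978). The call was lost without Ctrl replicate 1 (adjusted p = 0.0536), without KO replicate 2 (0.0517) and in the Wald test of DESeq2 (0.0796). In 4sU-seq the gene gave 1.04, 1.06 and 1.32 CPM in Ctrl and 1.85, 1.09 and 1.98 CPM in KO. KO replicate 2 lay among the Ctrl libraries there, and the log2 change was 0.53 ± 0.25 with adjusted p = 0.202. Without KO replicate 2 it was 0.68 with adjusted p = 0.00797, in a fit that called 11673 of 21686 genes.

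VIL1 showed no called change in newly made RNA, at 3.90, 3.42 and 3.68 CPM in Ctrl and 4.17, 3.36 and 4.32 CPM in KO. The groups overlap through KO replicate 2, and the log2 change was 0.11 ± 0.15 (adjusted p = 0.653). In RNA-seq it held 3, 9 and 5 counts against 10, 11 and 5 and did not pass the filter. Fitted with no filter, its log2 change was 0.58 ± 0.46 with adjusted p = 0.395. Only 56.0% of its exon bases lie outside the exons of other genes, since USP37 runs into its end from the opposite strand.

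CDH17 was called higher in newly made RNA but with a wide spread between KO libraries. Its level was 1.27, 1.15 and 1.68 CPM in Ctrl and 4.56, 1.94 and 3.85 CPM in KO. All KO libraries were above all Ctrl libraries, as for 20.6% of the genes tested in 4sU-seq, with KO replicate 2 close to Ctrl replicate 3. The log2 change was 1.34 ± 0.34, a fold of 2.53 (adjusted p = 0.0372). It was 1.56 with adjusted p = 0.000629 without KO replicate 2, and the call was lost without any one of the other 5 libraries (adjusted p from 0.0796 to 0.145) and under ERCC scaling (0.198).

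In RNA-seq CDH17 had 1, 6 and 2 counts in Ctrl and 14, 7 and 6 counts in KO and did not pass the filter. KO replicate 3 and Ctrl replicate 2 hold the same number of counts. Fitted with no filter the log2 change was 1.53 ± 0.53 with adjusted p = 0.0166, where 14.6% of the 37650 genes so fitted were called higher. In 4sU-seq, the 4595 genes that, like CDH17 and VIL1, have RNA-seq counts but miss the RNA-seq filter had a median log2 change of 0.39, and 22.5% of them were called higher. The 15863 genes tested in both assays had a median of -0.01 with 9.95% called higher.

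KO replicate 2, the 4sU-seq library that stood apart, was the lowest KO library for 4 of the 6 genes tested (MUC13, SLC26A3, VIL1 and CDH17) and for 45.2% of all genes tested. For MUC13 the change stayed called in all 15 alternatives, among them the fit without that library. In that fit all 4166 genes called in the main fit stayed called.

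**Figure D3:**
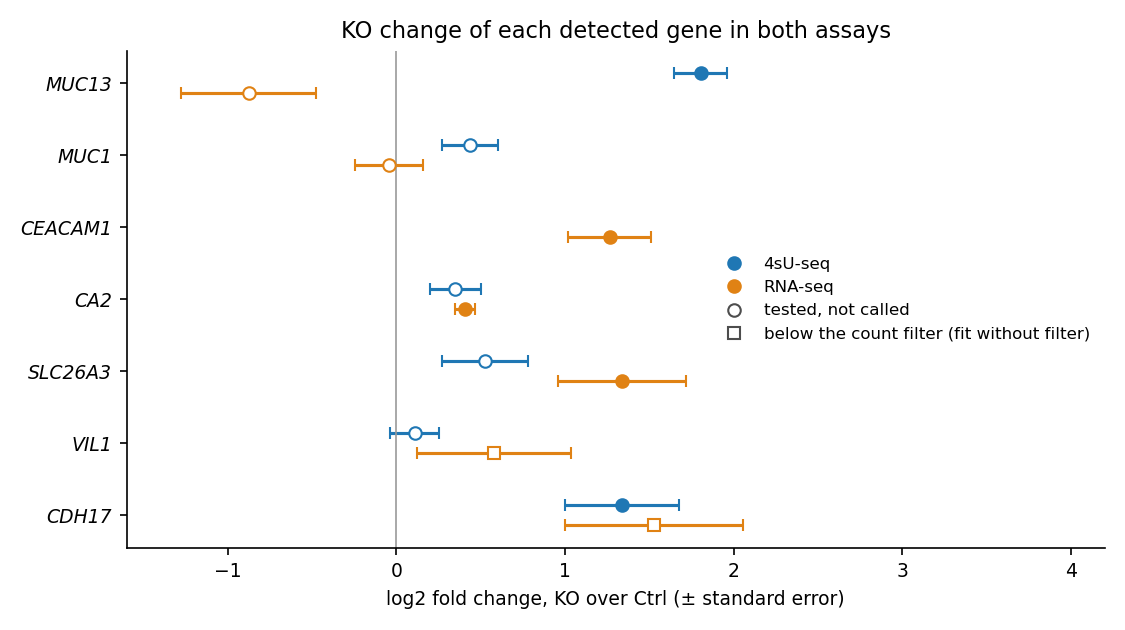
Log2 change from Ctrl to KO with its standard error for each detected gene, 4sU-seq in blue and RNA-seq in orange; filled circles passed the adjusted p threshold, open circles did not, and open squares are genes below the RNA-seq filter fitted with no filter. MUC13 lies at 1.81 in 4sU-seq and -0.88 in RNA-seq, while CA2 lies at 0.35 and 0.41.

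Whether the KO change differed between newly made and steady-state RNA was tested with an interaction term, over the genes that passed the filter in both assays, which include 4 of the 10. The difference was called for 2.14% of 15863 genes. MUC13 was among them: its change was 2.67 ± 0.42 log2 units higher in 4sU-seq than in RNA-seq (adjusted p = 0.0105). Under scaling by ERCC counts the difference was 2.83 with adjusted p = 0.485, and DESeq2 gave no adjusted p for this gene. For MUC1 the difference was 0.48 ± 0.26 (adjusted p = 0.413), for SLC26A3 -0.81 ± 0.49 (0.475) and for CA2 -0.06 ± 0.16 (0.920). These p-values do not show that the changes were alike in both assays. With no filter, CDH17 differed by -0.18 ± 0.70 and VIL1 by -0.44 ± 0.45, each with adjusted p = 1.00.

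Levels can be set beside each other per length. In Ctrl 4sU-seq, CPM per kilobase of free span was 0.909 for CA2, 0.118 for VIL1, 0.0952 for MUC1, 0.0302 for SLC26A3, 0.0153 for CDH17 and 0.00556 for MUC13. No neighbours in that order overlapped over the 3 Ctrl libraries. In KO, MUC1 (0.129) and VIL1 (0.127) overlapped, as did SLC26A3 (0.0435) and CDH17 (0.0388), and MUC13 (0.0195) remained the lowest.

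Per kilobase of exon, the steady-state order in Ctrl RNA-seq was another: 9.24 for CA2, 0.264 for MUC1, 0.0996 for MUC13, 0.0960 for CEACAM1, 0.0409 for SLC26A3, 0.0243 for VIL1 and 0.0229 for CDH17. MUC13 and CEACAM1 overlapped across libraries, and so did SLC26A3, VIL1 and CDH17. The log2 ratio of Ctrl 4sU-seq to Ctrl RNA-seq, taken on CPM plus 0.5 and with no test, was 2.64 for VIL1, 1.66 for CDH17 and 1.36 for SLC26A3. It was -0.14 for MUC13, -0.37 for CA2 and -0.75 for MUC1, where the median of the genes tested in both assays was 0.19. VIL1, CDH17 and SLC26A3 thus had more CPM in 4sU-seq than in RNA-seq, and the other 3 less. Zeros followed spans in one assay and exons in the other, and the counting features are not given. The ratios therefore do not set new against steady-state RNA on a common scale. These ratios depend on the pseudocount: with 0.05 in place of 0.5 that of VIL1 was 4.09.

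**Figure D4:**
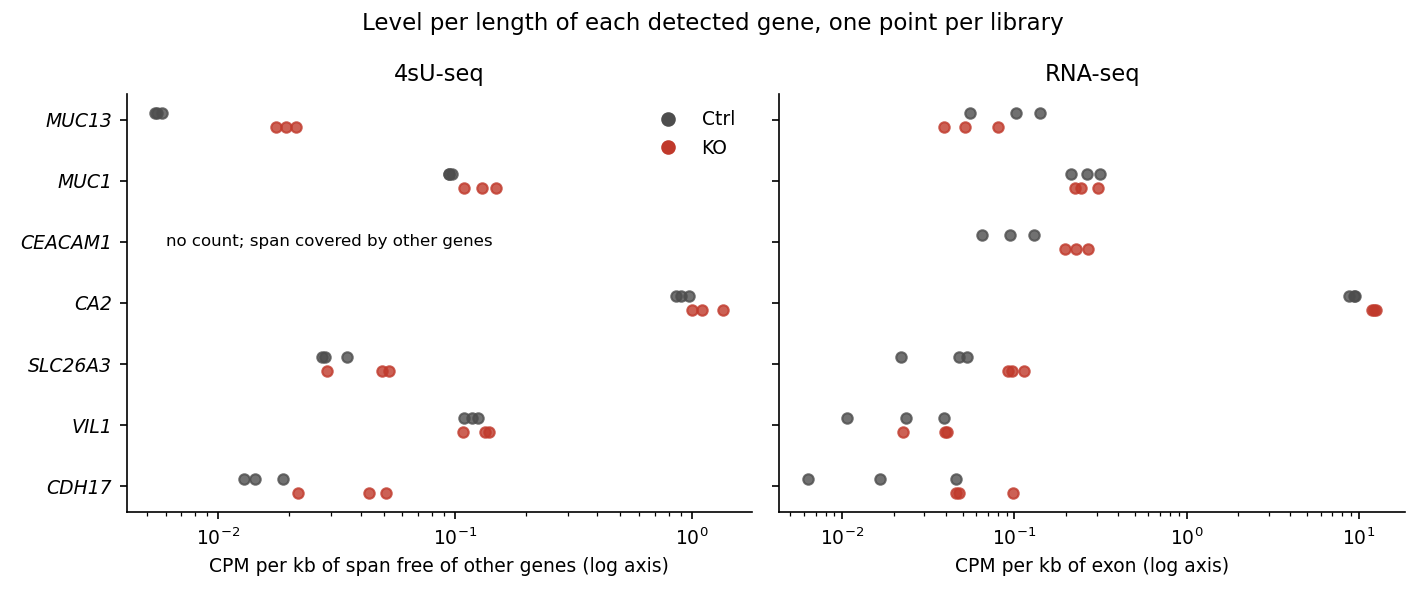
CPM per kilobase of each detected gene in every library on log axes, per kilobase of span free of other genes for 4sU-seq and per kilobase of exon for RNA-seq, Ctrl in grey and KO in red. CA2 lies highest in both panels, and MUC13 is lowest in 4sU-seq but below only CA2 and MUC1 among the Ctrl means in RNA-seq.

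Further genes of the same families and functions were counted in the same fits. Over all genes tested, 12.6% were called higher and 6.98% lower in 4sU-seq with a median log2 change of 0.05. In RNA-seq 21.5% and 26.8% were, with a median of 0.0014. The 4sU-seq share called higher varied with mean level. It was 17.2% up to 0.5 CPM, 20.0% to 21.7% in the bins from 0.5 to 5 CPM and 14.7% from 5 to 20 CPM. From 20 to 100 CPM it was 5.29%, and above 100 CPM 2.96%. Of the called genes, 64.4% were higher in 4sU-seq and 44.6% in RNA-seq. With ERCC scaling these shares were 93.9% and 61.6%, and with library size alone 78.3% and 72.4%. Of the 40 further list genes called in 4sU-seq, 7 stayed called under ERCC scaling, where 713 of all 4166 called genes did. All 40 stayed called without KO replicate 2, as did all 4166, so this is not particular to the list genes. In all alternatives tried, 4 (DPP4, SLC15A1, SCNN1B and MUC3A) stayed called. Of the 52 called in RNA-seq, 48 stayed called under ERCC scaling, where 6860 of all 9871 called genes did, and 33 in all alternatives. Among the transmembrane mucins in 4sU-seq, and the carbonic anhydrases and enterocyte genes in both assays, edgeR and DESeq2 called none lower and none had an unadjusted p below 0.05 in that direction.

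Transmembrane mucins, the family of MUC13 and MUC1, had 7 of 11 members tested in 4sU-seq, of which 5 were higher and none lower (median 1.14). Beside MUC13 these were MUC3A (1.73 ± 0.17, adjusted p = 0.0017), MUC12 (1.32 ± 0.20, 0.0075), MUC4 (1.14 ± 0.16, 0.00637) and MUC16 (1.05 ± 0.14, 0.00512). MUC3A and MUC12 are neighbouring intestinal mucin genes with repeated sequence, and their 4sU-seq levels were below 2 CPM in every library. ERCC scaling ended the calls of MUC12, MUC4 and MUC16 (adjusted p = 0.073, 0.135 and 0.152). In RNA-seq 6 were tested, with 2 higher and 1 lower (median 0.33). MUC4 rose by 2.12 ± 0.37 (adjusted p = 0.000338) and MUC3A by 0.75 ± 0.09 (1.76e-05). MUC12 fell, from 2.22, 1.85 and 1.43 CPM to 1.01, 1.54 and 0.932 CPM (-0.66 ± 0.22, adjusted p = 0.0254), with overlapping groups and with the call lost in 7 of 15 alternatives. MUC12, like MUC13, had estimates on opposite sides of 0 in the assays.

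Secreted mucins and goblet cell genes had 6 of 14 tested in 4sU-seq and 3 in RNA-seq. MUC5B, a gel-forming mucin, was the called one in each (0.90 ± 0.17, adjusted p = 0.0136, and 0.99 ± 0.26, adjusted p = 0.00608). MUC2, the main mucin of goblet cells, had no count in any Ctrl library of either assay. It reached 0.0402, 0.0599 and 0.0696 CPM in the 4sU-seq KO libraries and did not pass the filter.

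In the CEACAM family, 2 of 12 genes passed in each assay. CEACAM21 was higher in 4sU-seq (1.77 ± 0.35, adjusted p = 0.017), from 9 counts over the Ctrl libraries and 32 over the KO libraries. It passed the filter through KO. In RNA-seq CEACAM1 was the called one. A row for the pseudogene CEACAMP5, not on this list and named after its values were seen, rose from 0.614, 0.652 and 0.583 CPM to 3.68, 2.27 and 2.93 CPM in 4sU-seq (2.26 ± 0.21, adjusted p = 0.00162).

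Carbonic anhydrases were called higher in 2 of 13 tested genes in 4sU-seq (median 0.67) and in 5 of 8 in RNA-seq (median 0.55), with none lower. Beside CA2 the RNA-seq calls were CA11 (0.74 ± 0.09), CA12 (0.55 ± 0.10), CA13 (0.55 ± 0.09) and CA14 (0.76 ± 0.19), with adjusted p from 1.1e-05 to 0.00427. CA12, a transmembrane form, was also higher in 4sU-seq (0.62 ± 0.14, adjusted p = 0.0238), as was CA5A (0.93 ± 0.25, 0.0467). Of the SLC26 exchangers none of 10 was called in 4sU-seq by edgeR, while 1 had an unadjusted p below 0.05 and DESeq2 called 1. In RNA-seq SLC26A1 (0.46 ± 0.13, adjusted p = 0.0114) and SLC26A7 (0.71 ± 0.22, 0.0161) were higher beside SLC26A3, out of 8 tested.

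Other genes of colonocyte ion and water transport were called higher in 6 and lower in 1 of 16 tested in 4sU-seq (median 0.74), and higher in 7 and lower in 1 of 12 in RNA-seq (median 0.68), a list that includes CA2, CA12 and SLC26A3. The sodium channel subunit SCNN1B rose in 4sU-seq (2.00 ± 0.18, adjusted p = 0.00141), as did the bicarbonate cotransporter SLC4A4 (2.29 ± 0.42, 0.0137). The water channel AQP3 rose in both (1.53 ± 0.31, adjusted p = 0.0188, and 1.41 ± 0.12, adjusted p = 5.32e-07). So did the sodium and proton exchanger SLC9A2 (1.03 ± 0.27, 0.0438, and 1.21 ± 0.13, 4.44e-06) and another sodium channel subunit, SCNN1A (0.68 ± 0.14, 0.0188, and 1.17 ± 0.07, 2.11e-08). The potassium channel KCNN4 was lower in RNA-seq (-0.57 ± 0.06, adjusted p = 3.22e-06), and the lactate transporter SLC16A1 was lower in 4sU-seq (-0.45 ± 0.12, adjusted p = 0.0414).

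Genes of enterocyte enzymes and nutrient transport were called higher in 6 of 16 tested in 4sU-seq (median 0.81) and in 8 of 11 in RNA-seq (median 0.76), with none lower in either. DPP4, a membrane peptidase, went from 1.31, 1.21 and 1.63 CPM to 15.2, 9.16 and 16.2 CPM in 4sU-seq (3.29 ± 0.27, adjusted p = 0.00111) and rose by 3.39 ± 0.19 in RNA-seq (adjusted p = 1.55e-08). The peptide transporter SLC15A1 went from 0.191, 0.217 and 0.219 CPM to 9.53, 7.94 and 9.46 CPM in 4sU-seq (5.42 ± 0.17, adjusted p = 1e-04). In RNA-seq SLC15A1 had 3 counts over the Ctrl libraries and 2.43, 2.31 and 3.04 CPM in the KO libraries. The glucose transporter SLC5A1 rose in 4sU-seq (1.72 ± 0.29, adjusted p = 0.0103), and the peptidase ENPEP in RNA-seq (0.59 ± 0.11, 0.000561). Trehalase (TREH) rose in both (0.86 ± 0.17, 0.0187, and 1.45 ± 0.31, 0.00159). Intestinal alkaline phosphatase (ALPI) had no count in either assay and sucrase-isomaltase (SI) none in RNA-seq.

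Brush border scaffold genes, among which VIL1 is counted, moved in both directions. In 4sU-seq 2 of 19 were higher, the microvillus adhesion scaffold USH1C (0.91 ± 0.13, adjusted p = 0.00556) and MYO7B (1.20 ± 0.33, 0.0484), and none was called lower by edgeR, where DESeq2 called ezrin (EZR) lower and it had an unadjusted p below 0.05. In RNA-seq 5 of 16 were higher and 5 lower. The highest were USH1C (1.39 ± 0.09, adjusted p = 6.09e-08), the microvillar protocadherin CDHR5 (0.65 ± 0.16, 0.00362) and the actin bundler PLS1 (0.49 ± 0.08, 0.000211), followed by EPS8L1 and EPS8L2. The actin-capping and bundling protein EPS8 fell by 1.35 ± 0.06 on the log2 scale (7.24e-10), with MYO1E (-0.80 ± 0.06, 2.21e-07), ezrin (-0.56 ± 0.06, 5.18e-06) and espin (ESPN, -0.54 ± 0.06, 7.44e-06). MYO1D was the other lower one at -0.16 ± 0.06. Its call was kept in 3 of 15 alternatives and lost in 11, and its sign changed in 1, scaling by library size alone (0.02). The gelsolin and villin family itself had 3 genes higher and 1 lower of 8 tested in 4sU-seq (median 0.34), and 3 higher and 2 lower of 6 in RNA-seq (median 0.40). AVIL and GSN were higher in both assays (AVIL 0.77 ± 0.12 and 0.43 ± 0.13, GSN 0.72 ± 0.14 and 0.48 ± 0.10) and supervillin (SVIL) was lower in both (-0.64 ± 0.17 and -0.67 ± 0.06). SCIN was also higher in 4sU-seq (1.59 ± 0.35), and in RNA-seq CAPG was higher (0.37 ± 0.06) and FLII lower (-0.40 ± 0.06).

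**Figure D5:**
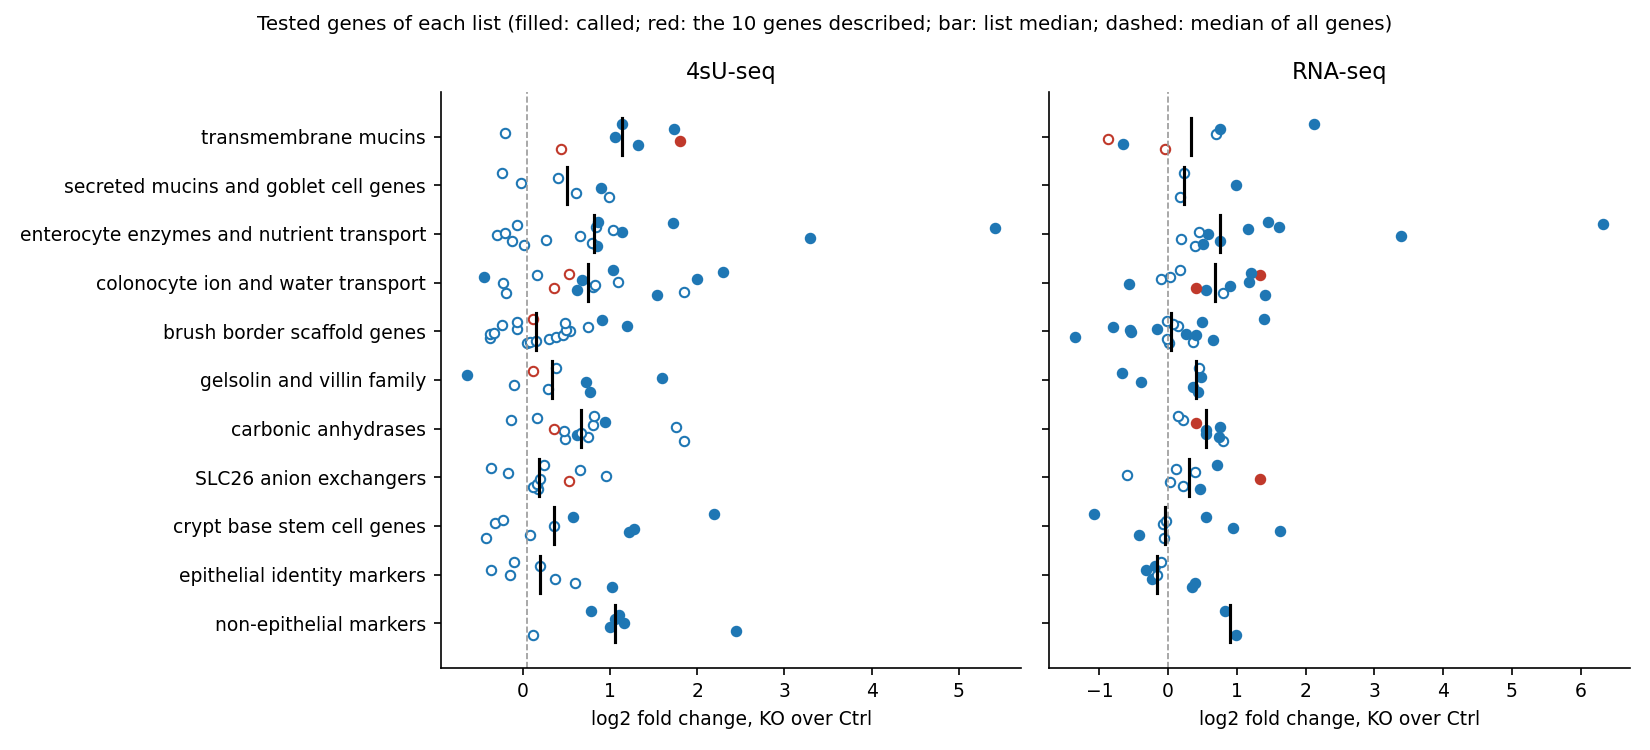
Log2 change from Ctrl to KO of every tested gene of 11 lists in 4sU-seq (left) and RNA-seq (right), filled where called, red for the 10 genes described, with a bar at each list's median and a dashed line at the median of all genes tested. The transmembrane mucins have a median of 1.14 in 4sU-seq and 0.33 in RNA-seq, and the SLC15A1 point above 6 in RNA-seq rests on 3 Ctrl counts.

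Fatty acid binding proteins, the relatives of FABP1, had 1 of 4 tested genes called in 4sU-seq (median -0.08) and 1 of 3 in RNA-seq (median 0.01), FABP6 in each. The bile acid binding FABP6 was higher in both assays (0.96 ± 0.16, adjusted p = 0.00923, and 1.06 ± 0.12, adjusted p = 7.77e-06). It measured 3.55, 3.86 and 3.73 CPM against 6.52, 8.62 and 6.51 CPM in 4sU-seq. FABP5 was not called by edgeR at -0.38 ± 0.12 in 4sU-seq (adjusted p = 0.0798) and -0.18 ± 0.07 in RNA-seq (0.0513). In 4sU-seq all its KO libraries lay below all Ctrl libraries, where groups did not overlap for 38.4% of all genes tested. DESeq2 called it lower in that assay. Of the cadherins listed with CDH17, 8 were tested in 4sU-seq and CDH1 (1.03 ± 0.11, adjusted p = 0.00261), CDH5 and CDH4 were called higher beside it. CDH1, the E-cadherin of epithelial junctions, rose less in RNA-seq (0.34 ± 0.06, adjusted p = 0.000242), and its changes differed by 0.68 ± 0.12 between assays (adjusted p = 0.0208), a call that was lost in 12 of 19 alternatives. CDH3 was lower in RNA-seq (-0.34 ± 0.06, adjusted p = 0.000692).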

How the data were processed

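HCT116 Ctrl and PPM1G KO cells were profiled by 4sU-seq and RNA-seq, 3 libraries per group. The authors deposited 1 table of raw gene counts per assay. The submitters' processing notes name HISAT2 2.1.0 and the build hg38, featureCounts, SAMtools 1.3 and FastQC 0.11.2. They leave the annotation, counting feature and strand setting unstated. Spans and overlaps came from GENCODE 29, which matched 94.3% of gene IDs. Promoters came from RefSeq (GRCh38.p14), which has 7 of the 10 genes.

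Each assay was fitted alone with edgeR 4.0.16 (R 4.3.3): filterByExpr (minimum count 10), TMM over gene counts without the 92 ERCC species, the quasi-likelihood F test (two-sided), and Benjamini-Hochberg adjustment over all genes tested. The interaction was fitted over all 12 libraries with TMM set within each assay. Standard errors were derived from the log2 change and F. Alternatives used DESeq2 1.42.0 size factors and its Wald test, ERCC scaling, library size alone, other filters, a replicate block, all 12 libraries in 1 fit, and leaving out each library. On simulated data, 0%, 25.4% and 83.3% of 1.5-, 2- and 4-fold changes were recovered in 4sU-seq among 21236 genes. In RNA-seq 61.2%, 89.6% and 97.0% were, among 20415. The simulation changed 67, 67 and 66 genes per assay at these folds and drew noise for each gene alone. The data hold far more called genes and deviations shared across genes, so these shares do not carry over to them. CDH4, for example, was called in 4sU-seq at a fold of 1.47. Figures were drawn with matplotlib 3.10.9.

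The 10 genes and the other lists were chosen with earlier results of these data known, so no list was tested. Named genes are the 10, PPM1G and, from each other list, called genes taken from those with the smallest p, at most 4 per assay and direction, or all where 5 or fewer were called. Named outside this rule, after their values were seen, were LIPE-AS1, CEACAMP5, CDHR5, MYO1D and genes that were not called (MUC2, ALPI, SI, AXIN2, FABP5, PTPRC, CD3E, EPCAM and KRT8).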

Additional observations from a re-analysis of the deposited data

Results flagged for a closer look

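For 6 of the genes described or listed, the KO change differed between newly made and steady-state RNA in the interaction test of edgeR. MUC13 differed by 2.67 ± 0.42 log2 units (4sU-seq minus RNA-seq, adjusted p = 0.0105). MUC12 differed by 1.97 ± 0.33 (0.0143). Its 3 KO libraries lay above its 3 Ctrl libraries in 4sU-seq, as for 20.6% of the genes tested. In RNA-seq its groups overlapped. MUC3A differed by 0.97 ± 0.20 (0.0316) and CDH1 by 0.68 ± 0.12 (0.0208), both higher in KO in each assay. MYO1E differed by 0.73 ± 0.15 (0.0309) and CD44, a crypt base surface marker, by 0.50 ± 0.09 (0.0237), both lower in KO in RNA-seq and not called in 4sU-seq. Under ERCC scaling no difference of these 6 genes was called. That of MUC13 was lost under that alternative alone of the 15 that gave it an adjusted p. MUC13 had none without RNA-seq Ctrl replicate 1 or replicate 2, with a mean of at least 50 counts as filter, or in DESeq2. The calls of MUC3A, MYO1E, CDH1, CD44 and MUC12 were lost in 13 of 18, 13 of 19, 12 of 19, 11 of 19 and 3 of 19 alternatives.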

How the results depend on the processing

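MUC13 in 4sU-seq was called in 15 of 15 alternatives (adjusted p up to 0.0489, under ERCC scaling), CA2 in RNA-seq in 15 of 15 and CEACAM1 in 14 of 14. CDH17 in 4sU-seq was lost in 6 of 15 and SLC26A3 in RNA-seq in 3 of 14, as given with their values. The RNA-seq change of MUC1 turned positive under library size alone (0.14) and ERCC scaling (0.031) and ranged from -0.19 to 0.16 when single libraries were left out. The CA2 difference between assays turned to 0.048 under ERCC scaling and ranged from -0.26 to 0.036 when single libraries were left out, turning positive without 4sU-seq KO replicate 1. The cause was not tested.

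The count of called genes in 4sU-seq, 4166, became 716 under ERCC scaling, 6606 with all 12 libraries in 1 fit, 10893 without both replicates numbered 2, and 1322 to 11673 when single libraries were left out, the highest without KO replicate 2 and the lowest without Ctrl replicate 1. In RNA-seq 9871 became 4579 with all 12 libraries in 1 fit and 8145 to 10151 with single libraries left out. The count of differences between assays, 340, became 7 under ERCC scaling, 1111 in DESeq2, 154 with no filter (chosen after seeing the data) and 90 to 5095 with single libraries left out, the highest again without 4sU-seq KO replicate 2. Library size alone moved the median change of all genes to 0.14 in 4sU-seq and 0.19 in RNA-seq, and ERCC scaling moved it to 0.27 in 4sU-seq. Same-numbered Ctrl and KO libraries had deviations correlated at -0.16, 0.88 and 0.85 in 4sU-seq and -0.06, 0.21 and 0.31 in RNA-seq. The 4sU-seq libraries numbered 2 thus deviated alike in both genotypes, as did those numbered 3. So did Ctrl replicate 3 and KO replicate 1, at 0.76. The main fits took no pairs and leave this shared spread in. With a replicate block the counts were 6907, 10384 and 663, and CDH17 in 4sU-seq had adjusted p = 0.0069 in the edgeR test. MUC13, SLC26A3, VIL1 and CDH17, with at most 20 counts in any RNA-seq library, are limited by depth there.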

Other observations

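Crypt base genes, which mark the proliferating end of the crypt, did not move one way. In 4sU-seq 4 of 9 tested were called higher and none lower by edgeR (median 0.36), where AXIN2 was lower in DESeq2 and at an unadjusted p below 0.05, and in RNA-seq 3 of 8 were higher and 2 lower (median -0.05). The ephrin receptor EPHB2 rose in both assays (1.21 ± 0.11, adjusted p = 0.00159, and 1.63 ± 0.07, adjusted p = 1.32e-09), as did EPHB3 (1.27 ± 0.25, 0.0174, and 0.95 ± 0.09, 2.44e-06) and the Wnt feedback ligase RNF43 (0.57 ± 0.11, 0.0139, and 0.55 ± 0.07, 1.66e-05). SMOC2 rose in 4sU-seq (2.19 ± 0.43, adjusted p = 0.017). The crypt transcription factor SOX9 fell by 1.08 ± 0.06 on the log2 scale in RNA-seq (adjusted p = 1.3e-08) and has no 4sU-seq count, its span being 0% free of other genes. CD44 fell by 0.42 ± 0.05 there (adjusted p = 2.71e-05). Of 13 enteroendocrine and Paneth genes, 3 were tested in 4sU-seq and 2 in RNA-seq, where none was called by edgeR or DESeq2 or had an unadjusted p below 0.05 (0 genes each). PYY, a peptide hormone of colonic endocrine cells, was the called one, higher in 4sU-seq (0.83 ± 0.16, adjusted p = 0.0156).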
